A study of Mus musculus with 4 samples.

Results

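The 38 ureteric epithelium genes described here encode junction proteins, keratins, surface proteases, transport factors, uroplakins and the nuclear factors that control such genes. They were chosen by name: a gene was a member if the gene name of an array probe was equal to an entry of the list. The members make up 38 of the 29924 gene names on the array, and 37 of them were measured well enough to be tested, among 22461 genes tested in all. The adhesion and tight junction class held 10 members (Cdh1, Cdh3, Epcam, Cldn3, Cldn4, Cldn6, Cldn7, Cldn8, Ocln and Tjp3), and the keratin and desmosome class held 7 (Krt5, Krt7, Krt8, Krt18, Krt19, Dsp and Pkp1). There were 10 transcription and splicing factors (Grhl1, Grhl2, Grhl3, Ovol1, Ovol2, Elf3, Foxa1, Trp63, Esrp1 and Esrp2), 4 proteases and inhibitors (Spint1, Spint2, St14 and Prss8), 2 genes of polarised transport (Rab25 and Ap1m2) and 5 uroplakins (Upk1a, Upk1b, Upk2, Upk3a and Upk3b). Pkp1, a plakophilin of desmosomes, was the member that was not tested, since its probe was well above background on 1 array only in either group.

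Ureters of wildtype NMRI embryos at E12.5 were explanted and kept for 18 h in serum-free medium with 10 µM IWP-2 or, as control, with its solvent DMSO (2:1000). IWP-2 inhibits Porcupine, an acyltransferase that WNT ligands require before they can leave the cell. Each of 4 two-colour arrays compared 1 treated pool with 1 control pool, and the treated RNA was red on arrays 1 and 3 and green on arrays 2 and 4. The pools held whole ureters of undetermined sex, with epithelium and mesenchyme together, and the inhibitor was given to the whole explant in the medium. All values are log2 ratios of IWP-2 over control unless a level is named, and means are followed by ± SD over the 4 arrays. Values without 1 array are estimates adjusted for dye rather than plain means. In them the single array left of a dye weighs as much as the 2 arrays of the other dye. Because each pool was labelled with 1 dye, pool and dye cannot be told apart on a single array.

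The ureteric epithelium derives from the nephric duct and is a simple, polarised layer at this stage. It later stratifies into a urothelium with basal, intermediate and superficial cells, of which the superficial cells carry plaques of uroplakin proteins on their apical surface and the basal and intermediate cells express P63. Grainyhead-like and Ovol factors are known to sustain epithelial junction genes, ESRP proteins set the epithelial pattern of splicing, and WNT ligands from the epithelium signal to the surrounding mesenchyme.

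Most of the epithelial genes were slightly higher with IWP-2, and none was lower. In limma's moderated test with a dye term and Benjamini-Hochberg adjustment over all genes, 27 of the 37 tested members (73%) were higher at an adjusted p under 0.05, where 18.1% of all genes tested were higher. No member was lower, where 15% of all genes were. On the series table of the authors, with values rounded to 1 decimal, 11 members were higher and 0 lower, where 8.16% of all genes were higher, and 16 of the 27 calls were lost, among them those of Krt8, Krt18, Cldn8 and Spint1. The changes were small: the means of the 27 genes ran from 0.21 for Cldn6 to 0.93 for Cdh3, and 24 of them were under 1.5-fold. The median over the 37 members was 0.34, and it was 0.27, 0.31, 0.42 and 0.32 on arrays 1 to 4, whereas the median of all genes lay between -0.00 and 0.01 on each array. In bulk RNA of whole ureters, a larger share of epithelial cells and more RNA per epithelial cell cannot be told apart. The ratios are relative to all genes of an array, so a larger share need not mean more epithelial cells. This holds for every change below.

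The direction was shared by nearly all arrays. Of the 37 members 26 were higher on 4 of 4 arrays, compared with 22.3% of all genes, and the exception among the 27 called genes was Foxa1. The levels of the 4 treated pools lay above those of all 4 control pools for 15 members, compared with 10.9% of all genes, and all 15 were among the 27. The filter of the study, under which a probe had to exceed 100 intensity units and 2-fold on every array, kept no member in either direction, and it kept 0.0735% of the gene names as higher and 0.348% as lower.

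**Figure D1:**
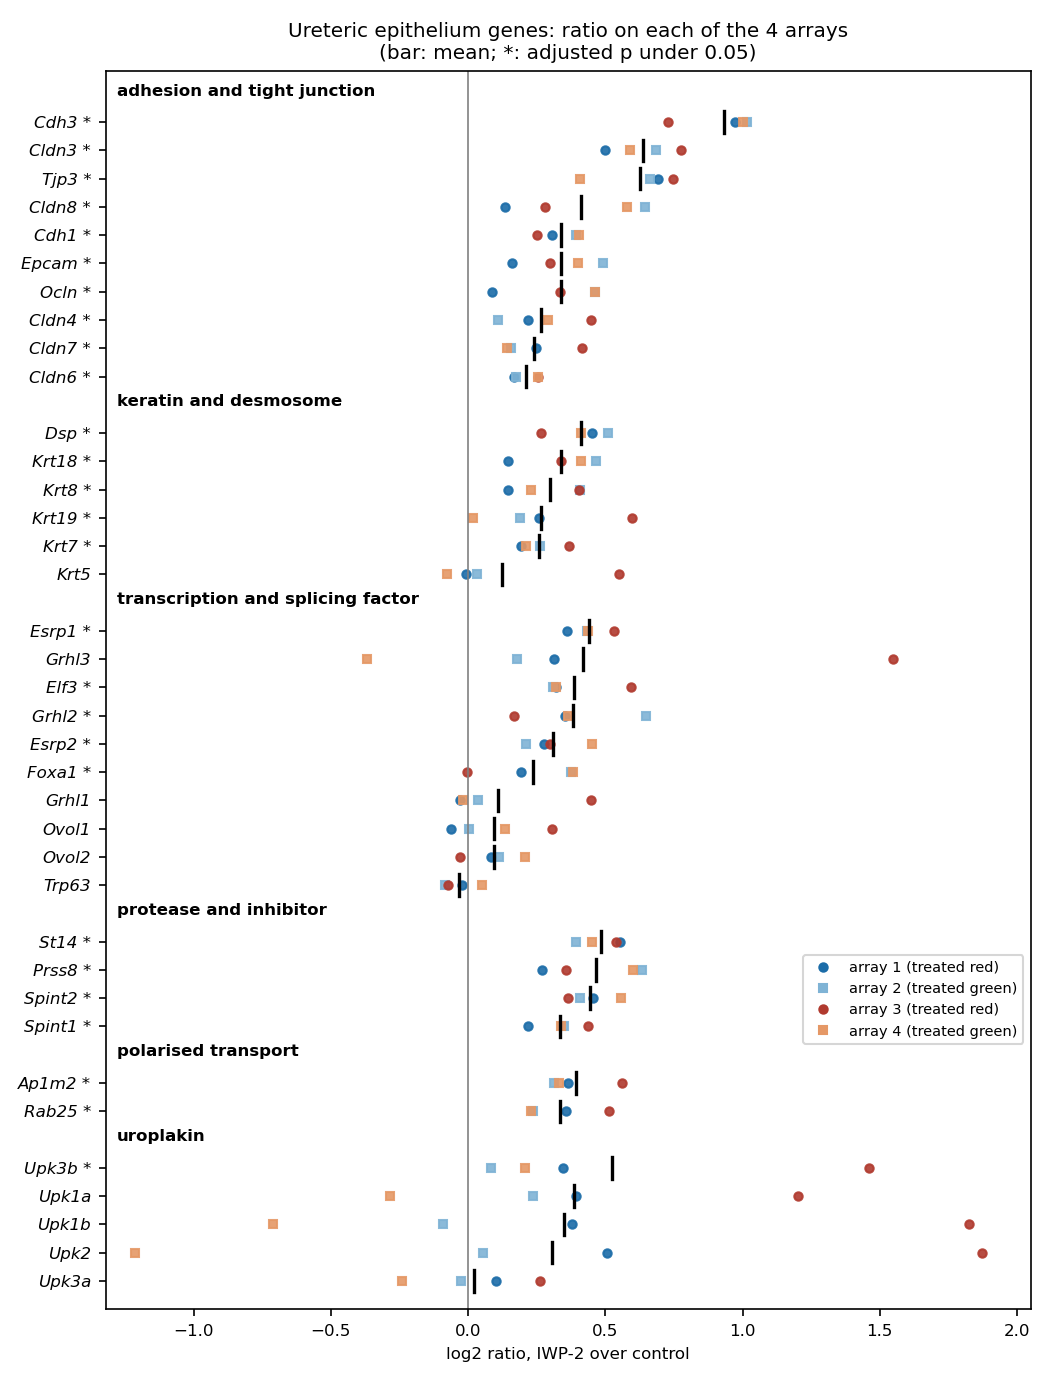
Log2 ratio of IWP-2 over control (x axis) for each of the 37 tested members (rows, by class) on the 4 arrays (points; circles, treated RNA red; squares, treated RNA green), with the mean as a black bar and an asterisk at an adjusted p under 0.05. Nearly all points of the junction, keratin, protease and transport genes lie to the right of 0, whereas those of Upk1a, Upk1b, Upk2 and Grhl3 spread from array 4 on the left of 0 to array 3 far on the right.

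Short sequence motifs were searched in the RefSeq promoters (GRCm38.p6, 250 bases before to 50 after a start). A promoter was at hand for 24 members, of which 18 were called, with 28 promoters in all because 4 genes had 2 each. The letters CACCTG form an E-box that Zeb and Snail factors are known to bind. This E-box stood on either strand in 21 of the 28 promoters (75%), and in 20.2% of all 32851 promoters. Counted by gene, 19 of the 24 members (79.2%) held it, as did 22.0% of the 13326 tested genes with a promoter. It was found for 16 of the 18 called members with a promoter and for Krt5, Grhl3 and Upk3a, which were not called. Grhl1, Ovol2 and Upk1a, not called either, were without it. The members were chosen by name, so the share describes the list, and a part of the E-box in the changes was not tested. The letters TGANTCA of AP-1 stood in 7.14% of the member promoters and 7.81% of all promoters, the grainyhead letters AACCNGTT in 3.57% and 2.09%, and the TCF/LEF letters CTTTGA in 3.57% and 16.0%. No motif lies within another, and each match is a description of letters only.

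The 250 bases before the start are shown for 6 called members, to let the E-box copies be seen in place. They are given 5′ to 3′ on the strand of the gene, with all matches to the 4 motifs in capitals in either direction. Ap1m2 (chr9:21312334-21312583, minus strand) held the most copies of the E-box, 4 in all. Rab25 (chr3:88548280-88548529, minus strand) held a grainyhead match beside 2 E-boxes, and Cldn4 (chr5:134946935-134947184, minus strand) held 2 AP-1 matches. The other 3 are Spint2 (chr7:29281978-29282227, minus strand), Epcam (chr17:87635729-87635978, plus strand) and Krt8 (chr15:102004343-102004592, minus strand).
Ap1m2: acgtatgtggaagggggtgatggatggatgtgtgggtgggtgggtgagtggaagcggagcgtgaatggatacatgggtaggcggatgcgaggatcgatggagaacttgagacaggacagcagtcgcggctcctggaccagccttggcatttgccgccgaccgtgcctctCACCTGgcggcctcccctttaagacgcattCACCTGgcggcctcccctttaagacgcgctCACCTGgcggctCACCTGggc
Rab25: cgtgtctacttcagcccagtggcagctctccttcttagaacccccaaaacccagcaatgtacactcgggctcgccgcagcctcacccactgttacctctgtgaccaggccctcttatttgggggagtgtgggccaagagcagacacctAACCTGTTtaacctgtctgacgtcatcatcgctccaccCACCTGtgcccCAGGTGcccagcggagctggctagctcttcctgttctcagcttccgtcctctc
Cldn4: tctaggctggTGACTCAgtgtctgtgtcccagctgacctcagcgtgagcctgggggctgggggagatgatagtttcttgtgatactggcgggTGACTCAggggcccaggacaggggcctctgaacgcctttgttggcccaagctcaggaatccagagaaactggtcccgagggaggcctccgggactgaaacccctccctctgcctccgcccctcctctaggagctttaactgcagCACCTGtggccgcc
Spint2: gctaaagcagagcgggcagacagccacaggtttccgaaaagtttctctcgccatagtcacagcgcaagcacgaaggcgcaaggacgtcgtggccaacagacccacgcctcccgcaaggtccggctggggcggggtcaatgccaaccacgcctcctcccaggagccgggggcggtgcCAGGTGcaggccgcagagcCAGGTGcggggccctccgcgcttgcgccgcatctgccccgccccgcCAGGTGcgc
Epcam: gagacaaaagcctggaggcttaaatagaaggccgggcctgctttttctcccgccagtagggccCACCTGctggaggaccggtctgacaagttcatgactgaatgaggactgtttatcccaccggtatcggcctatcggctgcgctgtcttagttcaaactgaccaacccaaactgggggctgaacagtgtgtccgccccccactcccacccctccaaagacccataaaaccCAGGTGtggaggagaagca
Krt8: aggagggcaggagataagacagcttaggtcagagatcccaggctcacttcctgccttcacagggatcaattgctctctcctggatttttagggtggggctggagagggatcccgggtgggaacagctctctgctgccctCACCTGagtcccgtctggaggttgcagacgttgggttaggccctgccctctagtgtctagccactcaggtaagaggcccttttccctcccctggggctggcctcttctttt

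All 10 adhesion and tight junction genes rose, with a median of 0.34. Cdh3, which encodes P-cadherin, changed most among the 37 tested members. Its level was 12.22, 12.35, 12.58 and 12.05 in the control pools of arrays 1 to 4 and 13.19, 13.37, 13.31 and 13.05 in the treated pools (log2 intensity), so that the groups did not overlap. The log2 ratio of Cdh3 was 0.97, 1.02, 0.73 and 1.00 on the arrays, and its mean of 0.93 ± 0.14 (1.91-fold, n = 4 arrays) had an adjusted p of 9.57e-05 in limma. The neighbouring gene Cdh1, which encodes E-cadherin, rose less, by 0.31, 0.39, 0.25 and 0.41 on the arrays (0.34 ± 0.07, adjusted p = 0.00152). The probe of Cdh3 lies at chr8:109079933-109079992 and that of Cdh1 at chr8:109193812-109193871 (mm9, per the files). For both cadherins array 3 gave the smallest ratio, whereas it gave the largest for Cldn3, Cldn4 and Cldn7.

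Cldn3, a claudin of tight junction strands, had levels of 14.43, 14.56, 14.42 and 14.48 in the control pools and 14.93, 15.25, 15.20 and 15.07 in the treated pools. Its ratio was 0.50, 0.68, 0.78 and 0.59 on arrays 1 to 4 (0.64 ± 0.12, 1.56-fold, adjusted p = 0.000582). Tjp3, which encodes the scaffold protein ZO-3 beneath the claudins, had ratios of 0.69, 0.66, 0.75 and 0.41 (0.63 ± 0.15, 1.54-fold, adjusted p = 0.000501). Together with Cdh3 these were the only members with a mean over 1.5-fold, and for none of the 3 did treated and control levels overlap.

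The remaining claudins rose by less. Cldn8 changed by 0.13, 0.65, 0.28 and 0.58 on arrays 1 to 4 (0.41 ± 0.24, adjusted p = 0.00122), with the 2 lower values on the arrays with red treated RNA. For Cldn4 the ratios were 0.22, 0.11, 0.45 and 0.29 (0.27 ± 0.14, adjusted p = 0.0133), and without array 3 it was at 0.21 and not past the test (adjusted p = 0.0549). Cldn7 and Cldn6, whose control and treated levels overlapped like those of Cldn4, were at the small end of the class. Cldn7 had ratios of 0.25, 0.16, 0.42 and 0.14 (0.24 ± 0.13, adjusted p = 0.00862), and Cldn6 had ratios of 0.17, 0.17, 0.26 and 0.26 (0.21 ± 0.05, adjusted p = 0.0102). Ocln, which encodes the tight junction protein occludin, had ratios of 0.09, 0.46, 0.33 and 0.46 (0.34 ± 0.18, adjusted p = 0.00418). Epcam, a surface adhesion molecule of simple epithelia whose promoter is shown above, had ratios of 0.16, 0.49, 0.30 and 0.40 (0.34 ± 0.14, adjusted p = 0.00254). For Ocln, Epcam and Cldn8 alike array 1 gave the smallest ratio, and their control and treated levels did not overlap.

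**Figure D2:**
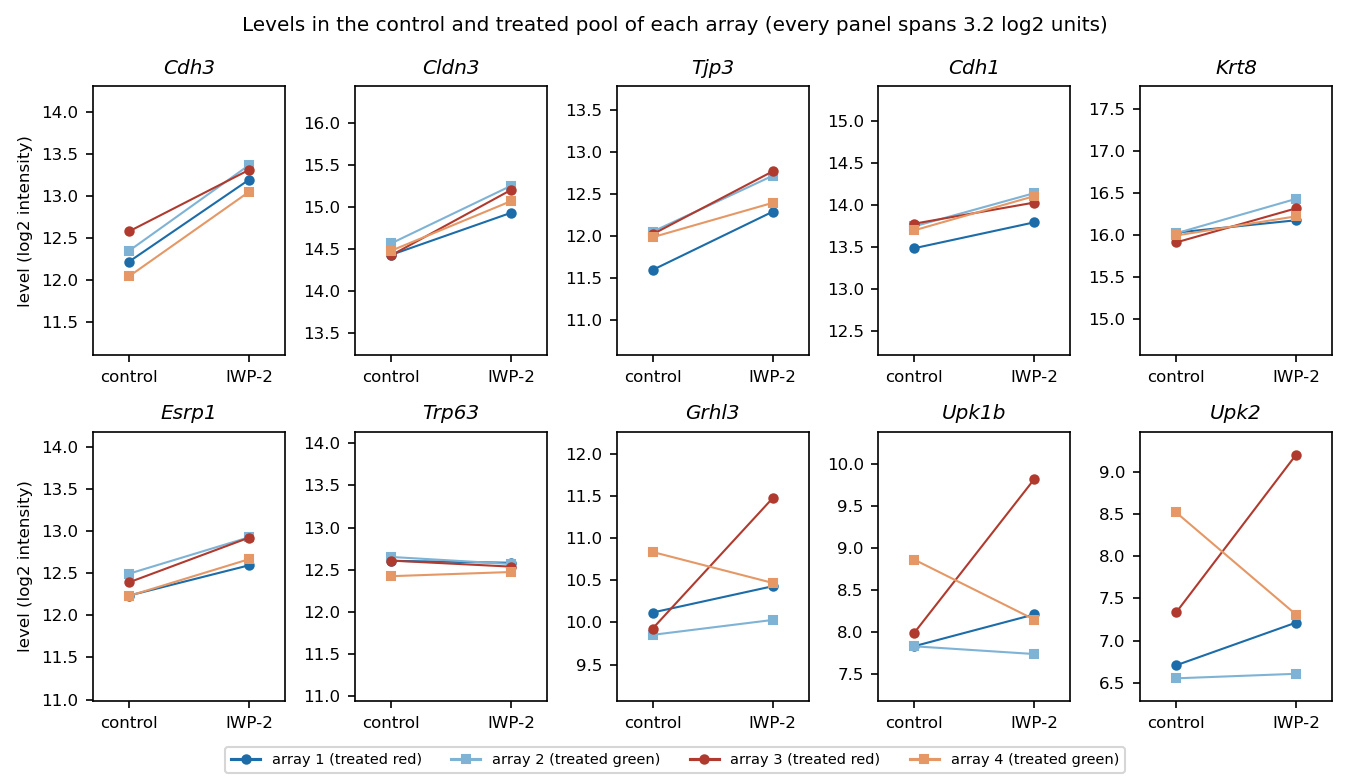
Level (log2 intensity after loess and Aquantile normalisation, y axis) in the control and the treated pool of each array for 10 members, with a line joining the pools of 1 array and the same span in every panel. The lines of Cdh3, Cldn3 and Tjp3 rise in parallel and those of Trp63 stay flat, whereas for Grhl3, Upk1b and Upk2 the treated pool of array 3 and the control pool of array 4 stand above the other pools.

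Of the 6 tested keratin and desmosome genes 5 rose, with a class median of 0.28. Krt8 and Krt18 encode the keratin pair of simple epithelia and lie near each other on chromosome 15. Krt8 had ratios of 0.15, 0.41, 0.41 and 0.23 on arrays 1 to 4 (0.30 ± 0.13, adjusted p = 0.0105), and Krt18 had ratios of 0.15, 0.47, 0.34 and 0.41 (0.34 ± 0.14, adjusted p = 0.00302). For both genes the treated levels lay above all control levels, and array 1 gave the smallest ratio. Krt7, a further simple keratin, had ratios of 0.19, 0.26, 0.37 and 0.21 (0.26 ± 0.08, adjusted p = 0.00705). Krt19 had ratios of 0.26, 0.19, 0.60 and 0.02 (0.27 ± 0.24, adjusted p = 0.0232), so that its mean leaned on array 3. Krt19 was no longer past the test without array 3 (0.18, adjusted p = 0.0787) or without array 2 (0.22, adjusted p = 0.0635). Dsp, which encodes desmoplakin, the link between desmosomes and keratin filaments, had ratios of 0.45, 0.51, 0.27 and 0.41 (0.41 ± 0.10, adjusted p = 0.00166). Krt5, a keratin of basal cells in stratified epithelia, had ratios of -0.01, 0.03, 0.55 and -0.08 (0.13 ± 0.29, adjusted p = 0.323), of which array 3 alone was away from 0. Its level was 7.29, 7.31, 7.40 and 7.29 in the control pools, and its SD between spots was 0.14, where the median of the members was 0.04. A second Krt5 probe was not well above background on any array in either group.

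All 4 proteases and inhibitors rose, with a median of 0.46. St14 encodes matriptase, a membrane protease of epithelia, and Prss8 encodes prostasin, a protease that acts with it at the cell surface. St14 had ratios of 0.55, 0.39, 0.54 and 0.45 on arrays 1 to 4 (0.49 ± 0.07, adjusted p = 0.000418). Prss8 had ratios of 0.27, 0.63, 0.36 and 0.60 (0.47 ± 0.18, adjusted p = 0.000551), with the 2 higher values where the treated RNA was green. Spint1 and Spint2 encode the Kunitz inhibitors HAI-1 and HAI-2 that restrain matriptase. Spint2 had ratios of 0.46, 0.41, 0.36 and 0.56 (0.45 ± 0.08, adjusted p = 0.000965), and Spint1 had ratios of 0.22, 0.35, 0.44 and 0.34 (0.34 ± 0.09, adjusted p = 0.00359). The control and treated levels of St14, Spint1 and Spint2 overlapped although each array gave a rise, whereas those of Prss8 did not. The 95% confidence interval was 0.39 to 0.58 for St14 and 0.34 to 0.55 for Spint2, and the difference between protease and inhibitor was not tested.

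The 2 genes of polarised transport rose as well. Rab25, a small GTPase of apical recycling endosomes, had ratios of 0.36, 0.24, 0.51 and 0.23 (0.33 ± 0.13, adjusted p = 0.00251). Ap1m2, the epithelial subunit of the adaptor complex for basolateral sorting, had ratios of 0.36, 0.31, 0.56 and 0.33 (0.39 ± 0.12, adjusted p = 0.00181). For both genes array 3 gave the largest ratio, and the levels of Ap1m2 did not overlap between groups. Their promoters are the ones shown above with 4 and 2 copies of the E-box.

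The transcription and splicing factors were split, with 5 of 10 past the test and a median of 0.27. Esrp1 and Esrp2 encode the epithelial splicing regulators. Esrp1 had ratios of 0.36, 0.43, 0.53 and 0.44 on arrays 1 to 4 (0.44 ± 0.07, adjusted p = 0.00101), and its levels did not overlap between groups. Esrp2 had ratios of 0.28, 0.21, 0.30 and 0.45 (0.31 ± 0.10, adjusted p = 0.00552). Elf3, an ETS factor of epithelia, had ratios of 0.32, 0.31, 0.59 and 0.32 (0.39 ± 0.14, adjusted p = 0.00309), with array 3 above the other arrays. Foxa1, a forkhead factor of endodermal and urothelial epithelia, had ratios of 0.19, 0.37, -0.01 and 0.38 (0.24 ± 0.18, adjusted p = 0.0111), with array 3 at 0.

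The grainyhead-like genes differed from one another. Grhl2, the family member known to activate Cdh1 and Cldn4 in epithelia, had ratios of 0.35, 0.65, 0.17 and 0.36 (0.38 ± 0.20, adjusted p = 0.00495), and no control level reached a treated one. Grhl1 had ratios of -0.03, 0.03, 0.45 and -0.02 (0.11 ± 0.23, adjusted p = 0.323). Grhl3, which is known for the terminal differentiation of surface epithelia, had ratios of 0.31, 0.18, 1.55 and -0.37 (0.42 ± 0.81, adjusted p = 0.146). The dye-adjusted estimate of Grhl3 was 0.11 without array 3. It was 0.73 without array 1, where array 3 alone had red treated RNA, and then passed the test (adjusted p = 0.00555). The estimate of Grhl2 stayed between 0.31 and 0.45 without any 1 array. An SD at least as large as that of Grhl3 was found in 0.102% of all genes. The difference between family members was not tested.

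Ovol1, Ovol2 and Trp63 were not past the test. Ovol1 had ratios of -0.06, 0.00, 0.31 and 0.14 on arrays 1 to 4 (0.10 ± 0.16, adjusted p = 0.312). Ovol2, which like Ovol1 encodes a zinc finger repressor of mesenchymal genes, had ratios of 0.08, 0.11, -0.03 and 0.21 (0.09 ± 0.10, adjusted p = 0.143). Trp63, which encodes P63, had ratios of -0.02, -0.08, -0.07 and 0.05 at its brightest probe (-0.03 ± 0.06, adjusted p = 0.598), with a 95% confidence interval of -0.13 to 0.07. Among the 10 members with more than 1 probe past the filter, Trp63 was the one whose probes differed in direction. Another Trp63 probe, designed to a different RefSeq transcript, had levels of 9.09, 8.61, 8.84 and 8.97 in the control pools and 9.21, 9.34, 9.38 and 9.42 in the treated pools (0.46 ± 0.26). A further Trp63 probe was at 0.12 ± 0.11, and on both of these probes the groups did not overlap. When the probes of a gene were averaged, Trp63 was at 0.18 and past the test (adjusted p = 0.0218), so that no single direction can be given for the gene. In the other 9 members the probes differed by 0.01 to 0.16 and kept 1 direction.

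Among the uroplakins 1 of 5 was past the test, and all but Upk3a varied more between arrays than nearly every other gene. Upk1a and Upk1b encode the tetraspanin uroplakins, and Upk2, Upk3a and Upk3b encode their partners. Upk2 had ratios of 0.51, 0.05, 1.87 and -1.21 on arrays 1 to 4 (0.31 ± 1.27, adjusted p = 0.416). Its level was 6.71, 6.55, 7.33 and 8.52 in the control pools and 7.21, 6.61, 9.21 and 7.31 in the treated pools. The highest level was thus that of the treated pool of array 3, followed by the control pool of array 4. Upk2 was well above background in the control pools of 2 arrays and in the treated pools of all 4, so that it passed the filter through the treated group alone.

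Upk1b followed the same order, with ratios of 0.38, -0.09, 1.82 and -0.71 (0.35 ± 1.08, adjusted p = 0.277). Its control levels were 7.83, 7.83, 7.99 and 8.86, and its treated levels were 8.21, 7.74, 9.82 and 8.15. Again the treated pool of array 3 and the control pool of array 4 stood above the others. Upk1a had ratios of 0.39, 0.24, 1.20 and -0.28 (0.39 ± 0.62, adjusted p = 0.0786). Upk3b had ratios of 0.35, 0.08, 1.46 and 0.21 (0.52 ± 0.63, adjusted p = 0.0483) and was the uroplakin that passed, at the edge of the threshold. Its levels overlapped between groups, with 7.01, 7.59, 7.84 and 7.43 in the control pools and 7.36, 7.67, 9.30 and 7.63 in the treated pools. Without array 3 the dye-adjusted estimate of Upk3b was 0.25 and still past the test (adjusted p = 0.0261), and without array 1 it was 0.80 (adjusted p = 0.000389). Upk3b lost its call without array 2 (0.56, adjusted p = 0.0507) and without array 4 (0.49, adjusted p = 0.0761), and in the fit without a dye term (adjusted p = 0.109). Without array 1, Upk1a (0.59, adjusted p = 0.0102) and Upk1b (0.71, adjusted p = 0.0085) passed the test, as did Upk1a without array 4 (0.52, adjusted p = 0.0236). Upk3a had ratios of 0.10, -0.03, 0.26 and -0.24 (0.02 ± 0.21, adjusted p = 0.767).

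For all 5 uroplakins both arrays with red treated RNA gave higher ratios than both arrays with green, and array 3 gave the highest. The SD of Upk2 ranked 3 and that of Upk1b ranked 5 among the 22461 genes tested. An SD as large as that of Upk3b was found in 0.24% of all genes and one as large as that of Upk1a in 0.263%. The order of arrays 3 and 4 was shared with Grhl3 and Krt5: array 3 was highest and array 4 lowest for 10 of the 37 members (27%) and for 11.5% of all genes. The uroplakin median was 0.35 over 4 arrays, and the median of the dye-adjusted estimates without array 3 was -0.012. Without array 3, 25 members were higher, where 12.8% of all genes were, and the median of the members was 0.28. The 2 calls lost without it were those of Cldn4 and Krt19.

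**Figure D3:**
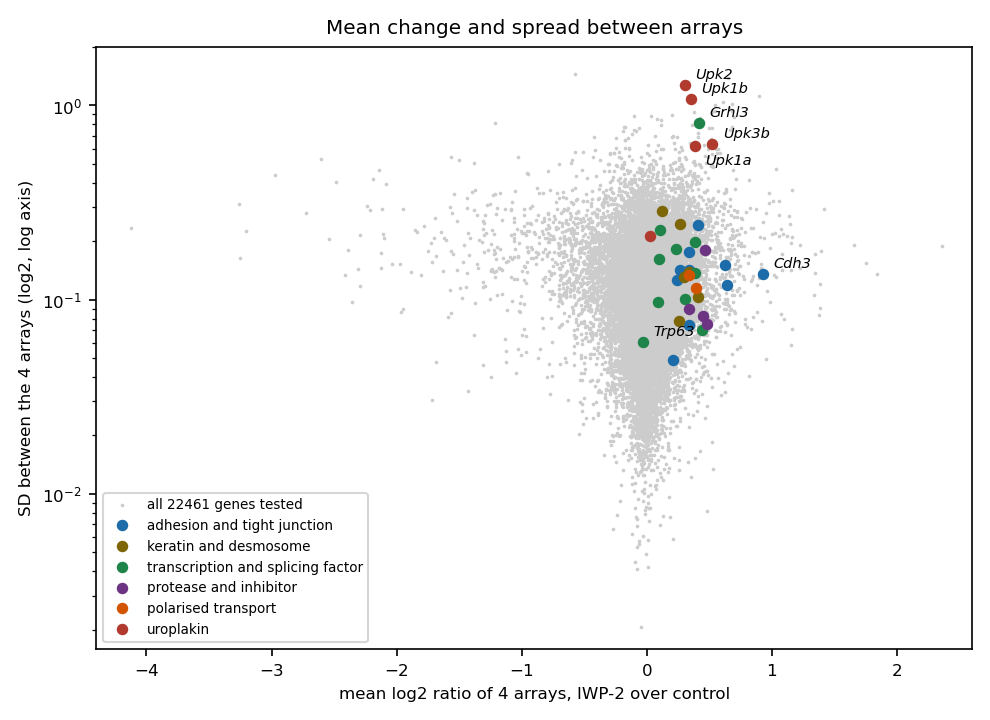
Mean log2 ratio of 4 arrays (x axis) against the SD between arrays (y axis, log scale) for all 22461 genes tested (grey) and the 37 members (coloured by class). Upk2, Upk1b, Grhl3, Upk3b and Upk1a lie at the top, with SDs from 0.62 to 1.27, while the other members lie among the bulk of genes with most means to the right of 0.

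Other measures set array 3 apart. Y-linked genes, read here as a measure of how the sexes were mixed in the pools, were lower in the treated than in the control pool of array 3 and higher in that of array 2: Ddx3y had ratios of 0.21, 0.91, -1.20 and 0.20 and Eif2s3y had ratios of 0.14, 0.83, -1.08 and 0.55 on arrays 1 to 4. Krt15, a keratin of basal cells outside the member list, had ratios of 0.69, -0.08, 2.56 and -0.58 with an SD that ranked 2 among all genes. These genes were chosen after their values were seen, and the part of sex or of pool makeup in the uroplakin values was not tested. Over the 37 members the ratios of arrays 2 and 4 correlated with r = 0.72 and those of arrays 3 and 4 with r = -0.63, while over all genes the 6 pairs of arrays lay between r = 0.62 and r = 0.83. These correlations are across genes, which share the pools of the array, and serve as a description.

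Other epithelial genes of the same roles were examined beside the members. In the list of other tight junction and polarity genes 12 of 17 were higher and 1 was lower, with a median of 0.24. The lower gene was the claudin Cldn1, which fell on 4 of 4 arrays (-0.32 ± 0.07, adjusted p = 0.00316). The largest changes were those of Llgl2 (0.49 ± 0.01) and Pard6b (0.39 ± 0.20), which encode cell polarity proteins, and of Patj (0.42 ± 0.07, listed as Inadl on the array). Of 13 tested desmosome and keratin genes outside the members 6 were higher, none was lower and 7 did not pass the test, and the largest changes were those of the plakins Ppl (0.43 ± 0.06) and Evpl (0.33 ± 0.12) and the desmoglein Dsg2 (0.28 ± 0.07). Among 16 other transcription factors of nephric duct and ureteric bud epithelium 12 were higher, with the largest changes in Tfap2b (0.67 ± 0.25), Emx2 (0.63 ± 0.15) and Elf5 (0.62 ± 0.15).

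Epithelial signals and basement membrane genes changed in both directions. In the list of epithelial signals and receptors 10 of 15 were higher and 2 were lower, and the fall of the receptor Fgfr3 (-1.06 ± 0.22) was larger in size than the rises of Aldh1a3 (0.60 ± 0.24) and Wnt11 (0.55 ± 0.09). Among 12 genes of the basement membrane and basal surface 8 were higher and 2 were lower, among them the laminin chains Lama5 (0.53 ± 0.28) and Lamb3 (0.40 ± 0.11). All these named changes had an adjusted p between 0.000105 and 0.00481 in limma.

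**Figure D4:**
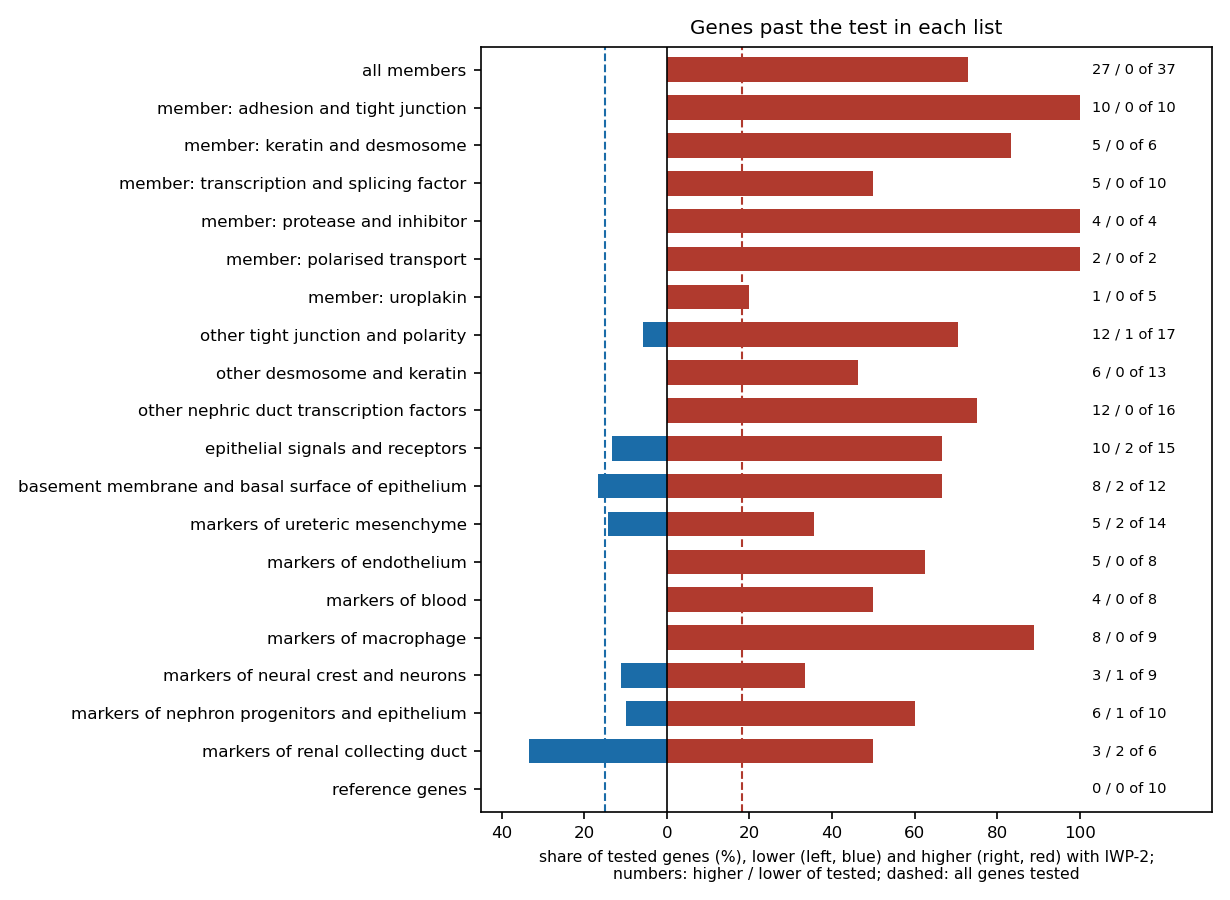
Share of the tested genes of each list that were higher (right, red) or lower (left, blue) with IWP-2 at an adjusted p under 0.05, with the counts beside the bars and the shares of all 22461 genes as dashed lines (18.1% higher, 15% lower). Every list but that of the reference genes reaches beyond the dashed line on the right, marker lists of other cell types included.

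Markers of other cell types were measured beside the members, and their part in the members' changes was not tested. Of 14 ureteric mesenchyme markers 5 were higher and 2 lower, and their summed level was 629.5 to 689.6 in the control pools and 667.9 to 764.8 in the treated pools. Summed levels here and below are in units of 1000 intensity units, control before treated. Twist1 (0.85 ± 0.08), Pdgfrb (0.80 ± 0.07) and Tbx18 (-0.74 ± 0.26) changed most. Of 9 macrophage markers 8 were higher (19.96 to 24.45 against 23.43 to 28), with Adgre1 (0.49 ± 0.16), Lyz2 (0.43 ± 0.09) and Cd68 (0.40 ± 0.09) in front. Of 8 endothelial markers 5 were higher (60.85 to 70.86 against 68.98 to 81.7), among them Cldn5 (0.37 ± 0.12), Cdh5 (0.26 ± 0.17) and Pecam1 (0.22 ± 0.11). Of 8 blood markers 4 were higher (287.5 to 436.1 against 409.3 to 461.6), led by the globins Hba-a1 (0.30 ± 0.27), Hba-x (0.28 ± 0.07) and Hbb-y (0.28 ± 0.46). Hbb-y rose only on the 2 arrays with red treated RNA (0.61, -0.10, 0.73 and -0.14 on arrays 1 to 4). Hba-a1 was at -0.03 on array 2.

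Of 10 markers of nephron progenitors and nephron epithelium 6 were higher and 1 lower (56.06 to 62.02 against 62.49 to 70.39), with Six2 (1.14 ± 0.27), Crym (-0.96 ± 0.45) and Meox1 (0.39 ± 0.21) changed most. Of 9 markers of neural crest and neurons 3 were higher and 1 lower (74.39 to 90.99 against 61.64 to 89.67), among them Ednrb (-1.38 ± 0.29) and Stmn2 (0.34 ± 0.11). Of 6 tested markers of the renal collecting duct 3 were higher and 2 lower (4.186 to 5.299 against 4.472 to 5.156), among them Hsd11b2 (-0.69 ± 0.21), Foxi1 (-0.49 ± 0.35) and Avpr2 (0.28 ± 0.11), while Atp6v1b1 was not well above background. The summed level of the 37 members themselves was 383.5 to 409.6 in the control pools and 450.7 to 549.7 in the treated pools, so that these ranges did not overlap. The other epithelial lists differed. Ranges were apart for other tight junction and polarity genes (168.9 to 177.9 against 194 to 212.7) and other transcription factors (80.83 to 93.04 against 102.8 to 118.9). They overlapped for other desmosome and keratin genes (30.58 to 34.28 against 33.08 to 39.77) and basement membrane genes (230.8 to 246.5 against 241 to 260.9). Epithelial signals and receptors (53.98 to 63.63 against 51.68 to 58.15) were higher with treatment on 0 arrays. None of the 10 reference genes passed the test in either direction, with a median of -0.04 and summed levels of 785.7 to 892.7 against 761.8 to 884. They were not all flat on single arrays, since some differed between dyes, which the dye term takes up. Gapdh had ratios of 0.14, -0.12, 0.30 and -0.30 on arrays 1 to 4, and Rplp0 had 0.13, -0.28, 0.32 and -0.30. Others stayed close to 0, such as Pgk1 with -0.09, -0.03, -0.08 and -0.01.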

How the data were processed

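Expression was measured on 4 two-colour Agilent arrays, and the labels count the arrays as replicates. The p-values rest on the spread between these pairs of pools that is left after the dye term. For each gene, eBayes draws this spread towards that of all genes tested. They therefore need not follow the SD over the 4 arrays, which includes any difference between dyes. In limma the dye coefficient had a p under 0.05 for 11 members, and for 0 members after adjustment. The authors scanned the arrays with Agilent Feature Extraction 10.7.3.1. The deposited files give a raw mean spot intensity and a median background intensity per channel, processed intensities (background-subtracted and dye-normalised per the file headers), and a log10 ratio of red over green that was used to check the direction. A deposited series table of the authors holds a signed fold-change score per probe and array, rounded to 1 decimal, which served as an alternative. Positions of probes are those of the files (mm9), and were not matched to gene models.

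Raw intensities were corrected with limma 3.58.1 (R 4.3.3) by normexp (offset 50) and normalised by loess within arrays (span 0.3). Control spots and outlier spots (3.01% to 3.38% of an array) were left out, no spot was saturated, and the 4 spots of a probe were averaged. Median raw intensities per channel lay between 368 and 711 over backgrounds of 28 to 77, and the median SD of a member between spots was 0.04 against 0.14 between arrays. The offset draws the ratios of dim probes towards 0. A gene was tested if its brightest probe was well above background (more than 0.5 of the spots) in the control or the treated channel of all 4 arrays (29943 of 39429 probes). lmFit and eBayes were run over all 4 arrays with 1 coefficient for treatment and 1 for dye, with Benjamini-Hochberg adjustment over 22461 genes and a threshold of 0.05. The script was tested on simulated data. Levels are log2 channel intensities after Aquantile normalisation and were never compared between probes. Of the member probes 48 of 52 passed the filter.

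All members were named, and values per array were given for members past the test, uroplakins and transcription or splicing factors. Of each other list the 3 largest changes past the test were named, except that some genes are not reported here. The members and lists were chosen with earlier results of these data known, and no test over a list was made. The alternatives tried were the background correction, the normalisation, the series table, the dye term, the filter on dim probes, the averaging of probes, array weights, each array left out, and the limits of the study's filter.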

Additional observations from a re-analysis of the deposited data

Results flagged for a closer look

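Among 93 values checked (the tested members, the other named genes and the medians of the lists), 4 had 1 array far from the other 3 by Dixon's criterion, and in each case this was array 3. About 1 value in 20, or 4.65 of 93, would be picked out by chance. Cdh3 was at 0.73 on array 3 and between 0.97 and 1.02 on the other arrays. Grhl1 was at 0.45 on array 3 and between -0.03 and 0.03 on the others. Elf3 was at 0.59 on array 3 and between 0.31 and 0.32 on the others. The macrophage marker Lyz2 was at 0.56 on array 3 and between 0.37 and 0.40 on the others. No uroplakin was among them.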

How the results depend on the processing

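The number of members higher with IWP-2 was 24 to 28 under the alternatives other than the series table, with 0 lower throughout, and 25 to 32 without 1 array. On the series table it was 11, where 8.16% of all genes were higher against 12.8% to 18.1% in the other settings, and the cause was not tested (median of the members 0.31 to 0.35 over all these alternatives, 0.28 to 0.37 without 1 array). Without 1 array, the median of the transcription and splicing factors ran from 0.20 to 0.27 and that of the uroplakins from -0.012 to 0.65. At a fold limit of 1.5 the filter of the study kept 1 member as higher. Averaging probes turned Trp63 to 0.18. Of the 27 calls 11 were kept under all alternatives and 12 were lost on the series table alone. Krt19 and Upk3b lost theirs in 5 of 14 alternatives, Foxa1 in 3 (none of them an array left out) and Cldn4 in 2. Without array 1, Grhl1, Grhl3, Krt5, Upk1a and Upk1b gained a call, and array 3 was then the only array with red treated RNA. Slide and scan as a block could not be fitted, because all 4 arrays shared them. Each array ratio already pairs a treated with a control pool, so no further block was added. The number of arrays limits the precision.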

Other observations

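Several genes outside the lists shared the order of arrays seen in the uroplakins, and they were chosen after their values were seen. Anxa8, an annexin of stratified epithelia, had log2 ratios of 0.33, 0.01, 1.66 and -0.51 on arrays 1 to 4, and its SD of 0.93 ranked 12 among all genes. Sprr1a, which encodes a protein of the cornified envelope, had ratios of 0.05, -0.24, 0.97 and -1.17, with an SD of 0.88. With Krt15, Upk2, Upk1b and Grhl3 they are among the 25 genes with the largest SD between arrays. Other genes of that group took different orders, such as the interferon-induced Ifit1 with 0.51, -0.02, 0.56 and 2.52.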
